A study of Rattus norvegicus with 12 samples.

Results

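Dlk1 (delta-like non-canonical Notch ligand 1, also called Pref-1) was followed in fetal kidneys of Sprague-Dawley rats at 19 days of gestation. It was 1 of 14557 genes with a transcript cluster of a single symbol, and 1 of the 36685 clusters of the array carried the symbol Dlk1 alone. The gene was selected on its difference between the 2 groups in these same arrays, so that difference is given as a description, with no test. CPS fetuses came from mothers under chronic photoperiod shifting, whose light and dark phases were reversed repeatedly during pregnancy. The methods state that these mothers were back at 12 h of light and 12 h of darkness before the kidneys were taken. LD fetuses came from mothers kept at 12 h of light and 12 h of darkness throughout gestation. Each group had 6 arrays, and an array read the RNA of kidneys pooled from 6 non-sexed fetuses of 1 mother. Tissue was taken at 8 h clock time according to the treatment protocol, whereas the sample characteristics give 20 h. Levels are on the log2 scale of Robust Multiarray Average (RMA), in which probe signals are corrected for background, brought to 1 distribution over arrays and combined per cluster.

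Dlk1 is a membrane protein with repeats like those of epidermal growth factor. It resembles the Delta ligands of Notch but lacks the domain by which they bind and activate the receptor. The protease Adam17 sheds its outer part, and the soluble form holds preadipocytes back from becoming fat cells. The gene is imprinted and is transcribed from the paternal allele, in a chromosome domain that ends at Dio3 and in which the maternal allele makes the long noncoding RNA Meg3 together with many microRNAs and small nucleolar RNAs. Dlk1 is high in many fetal tissues, among them hepatoblasts, muscle precursors, mesenchyme and the adrenal cortex, and it declines after birth in most of them.

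The promoter of Dlk1 is shown because CpG methylation is the mark by which imprinted domains are controlled and because photoperiod shifting concerns the clock, whose factors bind E-boxes. In the RefSeq promoter table (GRCr8) the window is chr6:134192347-134192646 on the + strand, 250 bases before and 50 bases after the start site used there, with capitals marking CG pairs. RefSeq places the start of the gene itself at 134192491, so part of those 250 bases lies within the gene as placed there.
Dlk1 promoter: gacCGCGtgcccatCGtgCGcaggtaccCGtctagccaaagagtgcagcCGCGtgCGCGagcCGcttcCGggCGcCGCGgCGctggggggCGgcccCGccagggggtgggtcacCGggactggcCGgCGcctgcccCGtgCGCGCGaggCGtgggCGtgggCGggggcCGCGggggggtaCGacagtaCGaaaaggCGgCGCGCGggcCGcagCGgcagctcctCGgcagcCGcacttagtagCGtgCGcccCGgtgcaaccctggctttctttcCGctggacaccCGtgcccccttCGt
These 300 bases held 45 CG pairs and were 76.0% G or C, against a median of 51.7% over 33469 promoters of the same length. Of those promoters, 98.3% had fewer CG pairs. On both strands, the clock E-box CACGTG was found 0 times (6.42% of promoters hold it), the general E-box CANNTG, which includes it, 0 times (72.1%), the D-box TTATGNAA 0 times (3.66%) and the TATA box TATAAA 0 times (14.2%). The GC box GGGCGG was found 2 times (33.1% of promoters hold it). Methylation and factor binding were not measured here, and a match or its absence describes the letters of this window alone.

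In CPS kidneys the log2 level of Dlk1 was 7.39, 6.64, 6.23, 6.22, 6.97 and 6.29 in replicates 1 to 6. In LD kidneys it was 6.07, 5.79, 5.72, 5.84, 5.88 and 6.06. The groups did not overlap, but the lowest CPS array lay just 0.15 above the highest LD array. Every CPS array lay above every LD array in 0.165% of the 14557 named genes. CPS averaged 6.62 ± 0.48 and LD 5.89 ± 0.14 (SD, n = 6 each), a log2 difference of 0.73 with a standard error of 0.19, or 1.66-fold. CPS replicates 1 and 5 stood above all other arrays and CPS replicate 2 followed. CPS replicates 6, 3 and 4 came next, from 6.29 down to 6.22, and LD replicates 1 and 6, at 6.07 and 6.06, were closer to them than the SD of CPS, so that these neighbours in the order are not set apart by more than the spread. The CPS arrays spanned 1.17 and the LD arrays 0.36. The higher mean of CPS rested most on replicates 1 and 5, and without CPS replicate 1 the difference was 0.58 with a standard error of 0.14.

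**Figure D1:**
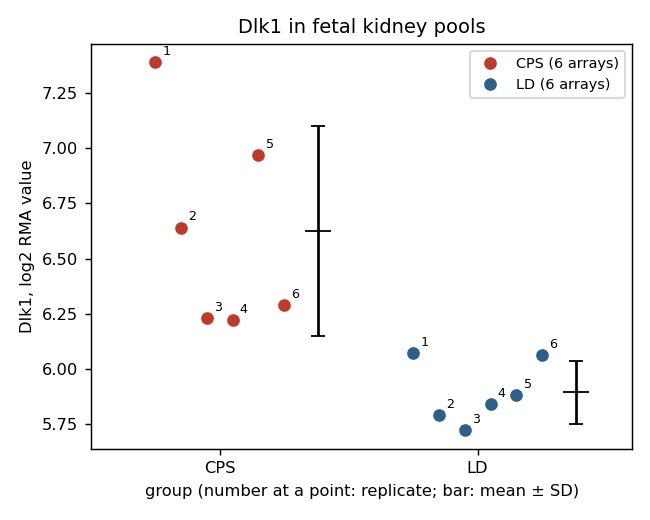
Log2 RMA value of Dlk1 (vertical axis) in the 6 CPS and 6 LD arrays, 1 point per array with its replicate number, and a bar for the mean ± SD of each group. CPS replicates 1 and 5, at 7.39 and 6.97, lie above the rest, and the lowest CPS array, at 6.22, lies just above the highest LD array, at 6.07.

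Every array of Dlk1 was far above dim signal, for which 1243 olfactory and vomeronasal receptor genes, few of them known in kidney, had a median log2 level of 1.72 and a 95th percentile of 2.66. The residual SD of Dlk1 over both groups was 0.35, against a median of 0.15 over 9408 named genes at or above the median level, 95.55% of which had a smaller one. That spread came from the CPS arrays, with an SD of 0.48, while the SD of 0.14 in LD was close to the median gene. For the whole table, limma gave 2.94% of 14557 named genes higher in CPS and 1.78% lower at the study's threshold, a p under 0.05 without adjustment, and 0.0% of all clusters after Benjamini-Hochberg adjustment, where the lowest adjusted p was 0.887. The calls of named genes split into 428 higher and 259 lower, or 532 and 96 with each array centred on its median. The median difference over named genes was 0.01. "Rose" and "fell" below refer to an unadjusted limma p under 0.05, and no gene passed adjustment. An "exact p" beside the difference of 1 gene comes from a two-sided permutation over all 924 regroupings of 6 arrays against 6, of which 0.00216 is the smallest possible. Array medians lay between 3.31 and 3.50, and no scan date or other batch was given in the sources used here.

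The pools also differed in markers of other tissues and cells, and in bulk RNA more cells of a type and more RNA per cell cannot be told apart. Skeletal muscle genes were high in CPS replicate 1, the array with most Dlk1. The mean of 10 measured muscle genes of 15 listed was 7.06, 4.37, 4.79, 3.95, 5.14 and 5.86 in CPS replicates 1 to 6, against 3.83 to 4.99 in LD. Stroma genes were higher in CPS as a group of arrays, since the mean of 12 of 15 genes lay between 8.54 and 8.87 in CPS and between 8.41 and 8.54 in LD. For the adrenal cortex, the mean of 9 of 14 genes lay between 2.69 and 3.44 in CPS and, around dim signal, between 2.48 and 2.91 in LD. For the liver, that of 12 of 18 genes lay between 5.04 and 7.17 in CPS and between 4.56 and 6.78 in LD, so that these groups overlapped widely.

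The difference of Dlk1 was recomputed with the mean of 1 marker list per array as a covariate. It was 0.50 with the muscle mean (standard error 0.17), 0.66 with the liver mean (0.21) and 0.90 with that of the adrenal cortex (0.25). With the stroma mean it was 0.29 with a standard error of 0.30. That last value depended on a single gene of the stroma list, Dpt, since it was 0.69 (standard error 0.31) when Dpt was left out of the list, a choice made after the data were seen. Without CPS replicate 1 the value with the full stroma mean was 0.11. The stroma means of the groups barely overlapped, so the covariate and the group cannot be told apart in this fit. Endothelium, nephron progenitor and proliferation means, also added after the data were seen, gave 0.71, 0.71 and 0.67. All these values were positive, and those of the muscle mean lay between 0.41 and 0.57 when each array was left out.

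**Figure D2:**
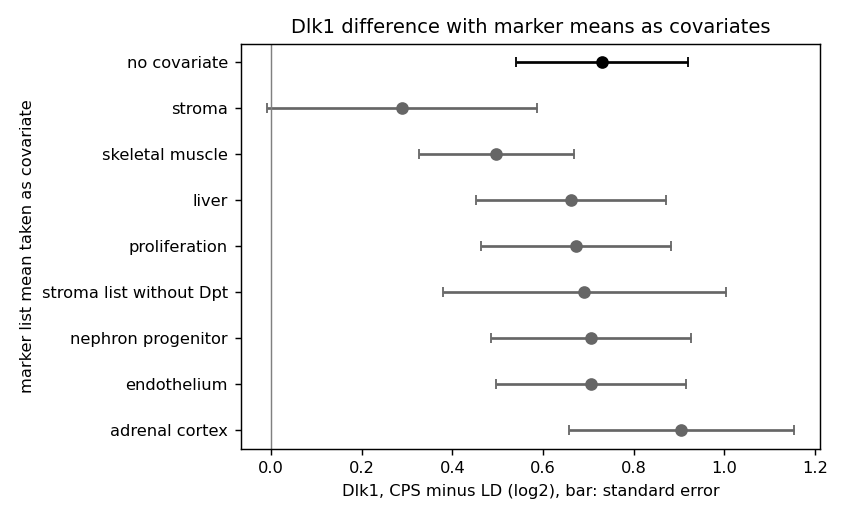
Log2 difference of Dlk1, CPS minus LD (horizontal axis, bars are standard errors), without a covariate and with the mean of each marker list as a covariate. It is 0.73 without a covariate, 0.29 with the stroma mean and 0.69 once Dpt is left out of that list.

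Within groups, which the choice of Dlk1 did not use, its level was set against 7 genes of tissues that the pools could hold and against the means of 14 marker lists. In all, 63 relations were computed, and none passed 0.05 after Benjamini-Hochberg adjustment, with a lowest adjusted permutation p of 0.35. Tnnc2, which encodes the calcium sensor troponin C in fast fibres, had the highest Pearson r of the 7 over 12 arrays with group means subtracted. The r was 0.69 (permutation p = 0.0419, adjusted p = 0.886) and rho was 0.60 (permutation p = 0.0617). In CPS kidneys its log2 level was 7.75, 4.09, 4.47, 3.71, 5.16 and 5.83 in replicates 1 to 6, and in LD kidneys 3.59, 3.71, 2.22, 2.85, 4.68 and 4.0. Without the 2 arrays farthest from its median, CPS replicates 1 and 4, r was 0.16, and without CPS replicate 1 alone it was 0.29, so the relation rested on these arrays. The muscle list mean behaved alike, with an r of 0.67 (permutation p = 0.0876), a rho of 0.74 (permutation p = 0.0144, adjusted p = 0.525) and an r of -0.004 without those 2 arrays.

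Cyp11a1, the enzyme that makes pregnenolone from cholesterol as the first step of steroid synthesis, had its highest r with Dlk1 in LD kidneys. In LD its r with Dlk1 was 0.90 (exact permutation p = 0.00556, adjusted p = 0.35, n = 6) and rho 0.94 (exact permutation p = 0.0167), and r was 0.86 without the 2 farthest arrays. In CPS r was -0.51 (exact permutation p = 0.294). The difference between the 2 correlations was not tested. The log2 level of Cyp11a1 was 4.05, 5.37, 4.15, 4.89, 4.23 and 5.66 in CPS replicates 1 to 6, and 4.46, 4.07, 3.56, 4.0, 4.22 and 4.32 in LD replicates 1 to 6. The CPS arrays with most Dlk1, replicates 1 and 5, held the lowest and the third lowest Cyp11a1 of CPS. Over 12 arrays r was -0.33 (permutation p = 0.456) and rho 0.29 (permutation p = 0.412), so that even the sign depended on the measure. For Cyp21a1, the 21-hydroxylase of the adrenal cortex, r was -0.15 (permutation p = 0.753) and rho 0.0 (permutation p = 1.0), and r was 0.41 without the 2 farthest arrays. Its LD arrays lay between 2.33 and 2.82, around dim signal.

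Albumin (Alb) and alpha-fetoprotein (Afp), the plasma proteins of the fetal liver, had an r of 0.19 (permutation p = 0.551) and 0.28 (permutation p = 0.408) with Dlk1, and a rho of 0.14 (permutation p = 0.699) and 0.34 (permutation p = 0.318). Without the 2 farthest arrays of each, r was 0.14 and 0.27. The array with most Alb, CPS replicate 2 at 11.59, held the third highest Dlk1. In LD, replicate 6 had most Alb, at 10.89, and the second highest Dlk1, 6.06, though that lay below every CPS array. Lum, a small proteoglycan of connective tissue, had an r of 0.11 (permutation p = 0.784), which was -0.31 without the 2 farthest arrays, and Col1a1, a chain of type I collagen, one of 0.39 (permutation p = 0.347), which was 0.14 without them. Their rho were 0.06 (permutation p = 0.897) and 0.11 (permutation p = 0.763). The stroma mean had an r of 0.49 (permutation p = 0.260) and a rho of 0.34 (permutation p = 0.319), with an r of 0.27 without its 2 farthest arrays. Within a single group, r was 0.74 in CPS and 0.51 in LD for Tnnc2, 0.13 in CPS and 0.51 in LD for Alb, and 0.22 in CPS and 0.64 in LD for Afp. It was 0.10 in CPS and 0.17 in LD for Lum, and 0.51 in CPS and -0.17 in LD for Col1a1. The exact permutation p of these 10 values lay at or above 0.0819.

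**Figure D3:**
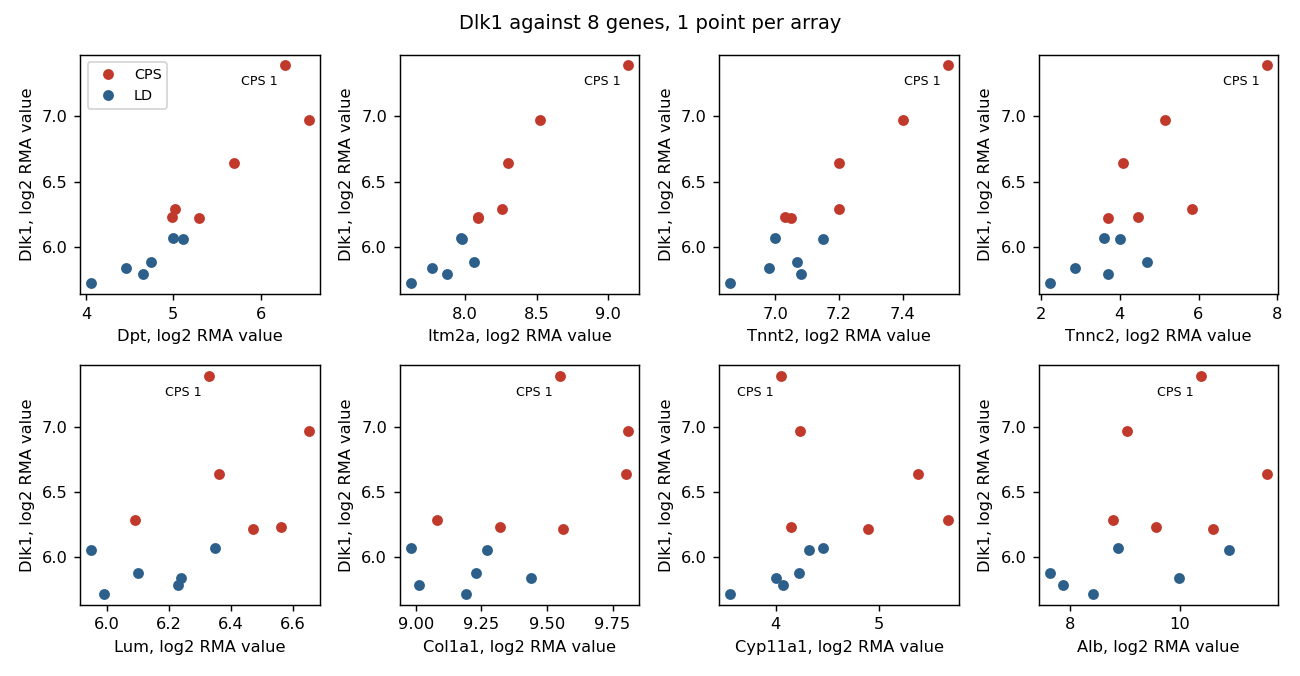
Log2 RMA value of Dlk1 (vertical axes) against that of 8 genes (horizontal axes), 1 point per array, 6 CPS and 6 LD. Dpt, Itm2a and Tnnt2 run with Dlk1 in both groups, Tnnc2 has an r of 0.29 without CPS replicate 1, and Cyp11a1 has an r of -0.51 in CPS and 0.90 in LD.

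Among 9407 other named genes whose level reached the median, 10 had the highest r to Dlk1 over 12 arrays after subtracting group means, namely Itm2a (0.92), Tnnt2 (0.90), Dpt (0.88), Map3k10 (0.85), Glipr1 (0.84), Usp6nl (0.84), Gnas (0.84), Ptdss2 (0.84), Fitm1 (0.84) and Gatd1 (0.83). They were picked for this r, so no test of it is given, and the median r of all was 0.02. Dlk1 was chosen for its group difference, which genes that vary with it can share. The exact p of any of these 10 genes, here and below, is therefore a description. The eleventh gene had an r of 0.83 as well, so the end of the 10 is arbitrary. Dpt encodes dermatopontin, a small protein of the extracellular matrix. Its log2 level was 6.28, 5.70, 4.99, 5.29, 6.55 and 5.02 in CPS replicates 1 to 6, and 5.0, 4.65, 4.06, 4.46, 4.75 and 5.11 in LD replicates 1 to 6. The arrays rich in Dlk1, CPS replicates 1, 5 and 2, were also the 3 highest of Dpt, and the r was 0.90 within CPS, 0.92 within LD and 0.95 without CPS replicate 1. Dpt rose by 0.97 (standard error 0.28, exact p = 0.0108) and was called in every fit that left out 1 array.

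Itm2a encodes an integral membrane protein of developing muscle and cartilage. Its log2 level was 9.14, 8.30, 8.09, 8.09, 8.52 and 8.26 in CPS replicates 1 to 6, against 7.97, 7.87, 7.62, 7.77, 8.06 and 7.98 in LD replicates 1 to 6. Its groups did not overlap either, and the difference was 0.52 (standard error 0.16, exact p = 0.00216). Its r was 0.95 within CPS, 0.72 within LD and 0.82 without CPS replicate 1. Tnnt2, the troponin T of heart and fetal skeletal muscle, had an r of 0.96 within CPS, 0.60 within LD and 0.81 without CPS replicate 1. For Usp6nl and Ptdss2 the r was 0.93 and 0.90 within CPS, against -0.31 and -0.01 within LD, a difference that was not tested. Without CPS replicate 1, Gnas (0.56), Fitm1 (0.55) and Ptdss2 (0.59) had the smallest r of the 10. The most opposed genes were Rpl32l2 (-0.84), Lancl2 (-0.84), Tmed9 (-0.83), Chmp5 (-0.83) and Vamp3 (-0.83). Of the 7 genes set against Dlk1, Tnnc2 stood at rank 133 of 9407, Col1a1 at 1307, Afp at 2128, Alb at 2890, Lum at 3681 and Cyp11a1 at 7889.

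**Figure D4:**
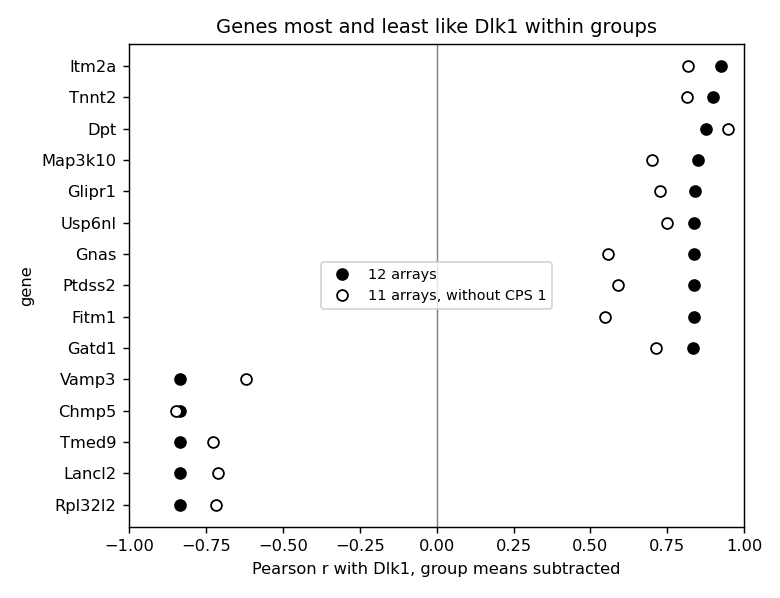
Pearson r with Dlk1 after subtracting group means (horizontal axis) of the 10 genes with the highest and the 5 with the lowest r, over 12 arrays (filled) and without CPS replicate 1 (open). Dpt goes to 0.95 without that array, while Gnas and Fitm1 go to 0.56 and 0.55.

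No neighbour of Dlk1 in its domain that could be named passed the test. RefSeq places 197 genes from Dlk1 to Dio3, of which 59 are microRNAs and 84 small nucleolar RNAs. Of 203 genes listed for the domain besides Dlk1, 2 were measured under a single symbol, and 0 passed the test. Dio3, the paternally expressed deiodinase that inactivates thyroid hormone, averaged 3.14 ± 0.27 in CPS and 3.02 ± 0.20 in LD (SD, n = 6 each), a difference of 0.11 (standard error 0.13, exact p = 0.422). Its log2 level was 3.38, 3.21, 3.26, 3.01, 3.30 and 2.66 in CPS replicates 1 to 6, and 3.19, 2.95, 2.99, 3.01, 2.71 and 3.29 in LD replicates 1 to 6, with full overlap. The lowest of these, CPS replicate 6 at 2.66, lay at the 95th percentile of the receptor genes, so Dio3 was not far above dim signal. Mir1193, a microRNA of the domain, differed by 0.03 (standard error 0.14, exact p = 0.840), near dim signal. The r to Dlk1 within groups was 0.61 for Dio3 and -0.38 for Mir1193, and neither was tested. A further 53 clusters carry several names that all belong to the domain and are not named one by one, a grouping made after the data were seen. Of these, 1 rose, 0 fell and 52 did not pass, with a median difference of -0.02, but 43 lay at or under the 95th percentile of the receptor genes, where little can be seen. Of all 36685 clusters, 2.38% were higher and 2.93% lower, so few calls would be made among 53 clusters at that share. Among 10 measured genes of 14 that flank the domain, 0 rose and 0 fell, against 2.94% higher and 1.78% lower over all named genes. Begain, a protein of synapses encoded before Dlk1, differed by -0.14 (exact p = 0.301), and Dync1h1, the heavy chain of dynein, by 0.10 (exact p = 0.216).

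Of the measured imprinted genes, those of the domain included, 4 of 32 passed the test (12.5%). Of 9 measured paternally expressed genes from 25 listed, 0 rose, 1 fell and 8 did not pass, with a median difference of -0.04, and of 21 genes from 23 listed as maternally expressed, 3 rose, 0 fell and 18 did not pass, with a median of 0.02. Over all named genes 2.94% were higher and 1.78% lower, with a median of 0.01. Gnas, a locus with several transcripts of either allele or both and the source of the stimulatory G protein subunit, rose by 0.74 (standard error 0.26, exact p = 0.00216). Its log2 level was 6.22, 4.49, 4.44, 4.53, 5.06 and 4.85 in CPS replicates 1 to 6, against 4.35, 4.32, 4.05, 4.11, 4.24 and 4.09 in LD replicates 1 to 6. The groups of Gnas did not overlap, CPS replicate 1 stood apart, and without it the difference was 0.48. Which of its transcripts the probes read was not examined, so its place among the maternally expressed genes is that of the list alone. Zim1, an imprinted zinc finger gene, rose by 0.31 (standard error 0.13, exact p = 0.0520), with 6.49, 6.30, 5.93, 5.99, 6.23 and 5.85 in CPS and 5.92, 6.04, 5.89, 5.45, 5.66 and 5.95 in LD. Its 3 highest arrays, CPS replicates 1, 2 and 5, were those of Dlk1, and its call was lost without CPS replicate 1, 2 or 5 or LD replicate 4 or 5, where the difference was 0.24 to 0.29. Igf2r, the receptor that clears insulin-like growth factor 2, rose by 0.20 (exact p = 0.0411), called without CPS replicate 1, 3 or 6 or LD replicate 3 or 4 and lost without any of the other 7 arrays (0.16 to 0.24 over all 12 fits), and Usp29, a paternally expressed ubiquitin protease gene, fell by 0.26 (exact p = 0.0563), called without CPS replicate 3 or LD replicate 1 or 4 and lost without any of the other 9 arrays (-0.33 to -0.19). The call of Usp29 was also lost with arrays centred (-0.23), after quantile normalization again (-0.23), with the intensity trend and by the methods' unpaired one-way test. Usp29 averaged 2.86 in CPS and 3.13 in LD, not far above dim signal. In place of 4 calls among imprinted genes there was 1 without LD replicate 5, and there were 2 without CPS replicate 1 or CPS replicate 5. There were 3 without CPS replicate 2 or 6 or LD replicate 1, 2, 3, 4 or 6, so the count of 4 held only without CPS replicate 3 or 4. The growth-restraining genes Cdkn1c, H19 and Grb10 did not pass in any of these fits.

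Of 35 measured genes of the Notch pathway, to whose ligands Dlk1 is related, 1 passed the test (2.86%), a share no higher than over all named genes, where 2.94% were higher and 1.78% lower. Of 9 measured ligands and ligand-like genes, 1 rose and 8 did not pass, and of 11 receptors and their modifiers, 4 genes of ligand and receptor cleavage and 11 nuclear factors and targets, 0 rose and 0 fell. The median differences of these lists were 0.09, 0.07, 0.09 and 0.02. The gene that rose, Mfap5, encodes a microfibril protein that is known to bind Notch and its ligands, and it is also a gene of connective tissue. Its log2 level was 4.83, 5.24, 4.09, 3.97, 5.76 and 4.20 in CPS replicates 1 to 6, against 3.97, 3.96, 3.56, 3.40, 4.21 and 3.95 in LD replicates 1 to 6. The difference was 0.84 (standard error 0.29, exact p = 0.0216), it was called in every fit that left out 1 array, and CPS replicates 5, 2 and 1 were highest, the same 3 arrays as for Dlk1. The canonical ligand gene Dll1 differed by 0.17 (exact p = 0.199), the receptor gene Notch2 by 0.18 (exact p = 0.102) and Adam17 by 0.11 (exact p = 0.0195, not past the limma threshold). Hes1, a repressor that Notch switches on, differed by -0.09 (exact p = 0.314). In place of 1 call in the pathway there were 2 without CPS replicate 1, 3, 4 or 6 or LD replicate 2 or 3, and 3 without LD replicate 5.

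**Figure D5:**
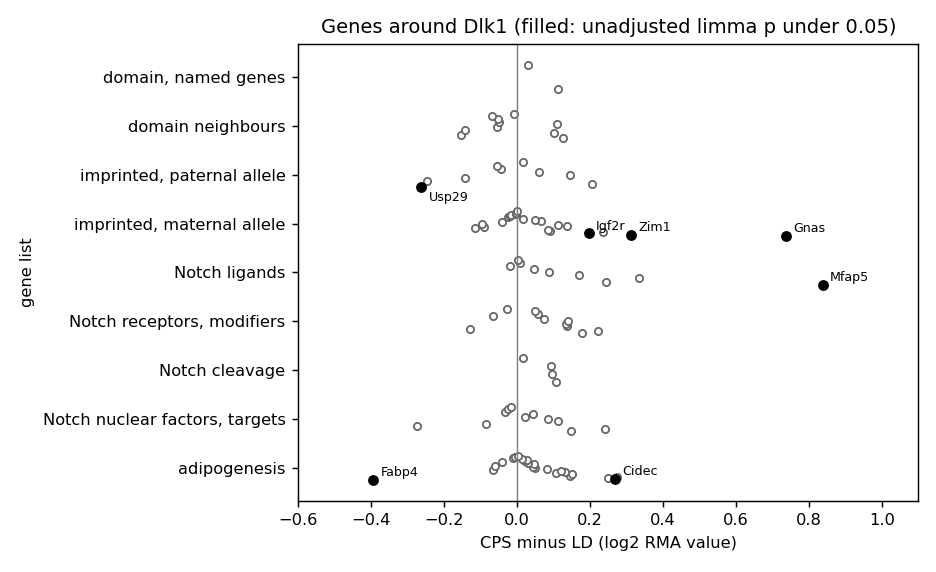
Log2 difference, CPS minus LD (horizontal axis), of each measured gene of 9 lists around Dlk1 (rows), with filled points for an unadjusted limma p under 0.05. Gnas at 0.74 and Mfap5 at 0.84 lie apart on the right, and most genes lie near 0.

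Of 23 measured genes of fat cell formation, which soluble Dlk1 is known to restrain, 1 rose, 1 fell and 21 did not pass, with a median difference of 0.04. Over all named genes 2.94% were higher and 1.78% lower. Fabp4, the fatty acid binding protein of fat cells, which endothelium also makes, fell by 0.39 (standard error 0.15, exact p = 0.0325). Its log2 level was 5.23, 5.17, 6.0, 5.65, 5.58 and 6.02 in CPS replicates 1 to 6, and 6.24, 6.05, 6.03, 5.86, 5.85 and 5.97 in LD replicates 1 to 6. The 3 CPS arrays richest in Dlk1 were the 3 lowest of Fabp4, whose r to Dlk1 over 12 arrays with group means subtracted was -0.59. In LD, replicate 1 was highest in both genes, at 6.07 for Dlk1 and 6.24 for Fabp4. The inverse order was thus seen in CPS and not in LD. Cidec, a protein of lipid droplets, rose by 0.27 (exact p = 0.0325), with values between 2.52 and 3.06 in CPS and between 2.35 and 2.67 in LD, around dim signal, and its call was lost with the intensity trend. The call of Fabp4 was lost without CPS replicate 1 or 2 or LD replicate 1 (-0.48 to -0.31 over the 12 fits that left out 1 array) and that of Cidec without CPS replicate 1 or 4 or LD replicate 2 (0.22 to 0.33). Without CPS replicate 1, LD replicate 1 or LD replicate 2 there was 1 call in place of 2, and without CPS replicate 3 or LD replicate 4 there were 3. Zfp423, a factor of preadipocytes, differed by -0.01 (exact p = 0.913) but had an r of 0.78 to Dlk1 within groups. It was named after this r, the highest of the 23 genes, was seen. The median r of the 23 genes was 0.16, and some were negative, such as Scd at -0.52.

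Among the genes of other tissues and cells, those of stroma and of the adrenal cortex were called most often. The shares to set beside the counts below, those over all named genes, were 2.94% higher and 1.78% lower. Of 12 stroma genes, 5 rose, 1 fell and 6 did not pass, with a median difference of 0.20. Besides Dpt, these were Postn, a matrix protein of growing mesenchyme, by 0.27 (exact p = 0.00866), Foxd1, the factor of renal stromal progenitors, by 0.19 (exact p = 0.00433), Lum by 0.27 (exact p = 0.0346) and Col1a1 by 0.34 (exact p = 0.0390). Without 1 array, the calls of Foxd1 (CPS replicate 2, 0.15), of Lum (CPS replicates 3 and 5, LD replicates 3 and 6) and of Col1a1 (CPS replicates 2 and 5, LD replicates 1 and 2) were lost. Tcf21, a factor of renal mesenchyme, fell by 0.21 (exact p = 0.0152), which did not pass with arrays centred (-0.17). The median r of the 12 stroma genes to Dlk1 within groups was 0.09, so that Dpt, at 0.88, was not typical of its list. The 10 muscle genes had a median r of 0.63, but the r of their mean was -0.004 without CPS replicates 1 and 4. Of the 9 adrenal cortex genes, 5 rose and 0 fell, with a median difference of 0.47, led by Cyp21a1 at 0.70 (standard error 0.19, exact p = 0.0130), and their median r to Dlk1 was -0.15. Of these 5, Cyp11a1 (0.62, exact p = 0.0887) was called without CPS replicate 1, 3 or 5 or LD replicate 1 and lost without any of the other 8 arrays (0.43 to 0.75 over the 12 fits). Akr1b7, an aldo-keto reductase of the adrenal cortex (0.86, exact p = 0.0606), was lost without CPS replicate 2, 4 or 6 or LD replicate 4 or 5 (0.61 to 1.09), and neither passed the methods' unpaired one-way test. In LD, Cyp21a1 (2.48), Cyp11b1 (1.85) and Akr1b7 (2.24) averaged under 2.66, the 95th percentile of the receptor genes, and Cyp11b1 did so in CPS as well (2.64). Of 10 muscle genes 1 rose, Tnnc2, by 1.66 (standard error 0.63, exact p = 0.0303), and of 12 liver genes 1 rose, Cps1, an enzyme of the urea cycle, by 0.86 (exact p = 0.0498). The call of Tnnc2 was lost without LD replicate 3 (1.40), and that of Cps1 without CPS replicate 1 or 2 or LD replicate 1 (0.67 to 1.05 over the 12 fits). Both lists had a median difference well above that of all named genes, at 0.84 and 0.74. No call was made among the measured genes of adrenal medulla, gonad, nephron progenitors, podocytes, tubule, ureteric bud, endothelium, red cells, macrophages and proliferation. The renal markers Sall1 of nephron progenitors, Ret and Gata3 of the ureteric bud and Podxl of podocytes were all above dim signal. Of the 45 genes of adrenal, liver, muscle and gonad, 7 were called, or 16 without LD replicate 6, the LD array with the highest liver mean. Of 46 genes of kidney epithelium, endothelium, blood and division, 0 were called, or 7 without CPS replicate 6, 2 without CPS replicate 3, LD replicate 3 or LD replicate 6 and 1 without CPS replicate 1 or LD replicate 4. The calls over all named genes changed as well, from 428 higher and 259 lower to 630 and 330 without CPS replicate 6. Without LD replicate 6 they were 422 and 248.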

How the data were processed

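Total RNA of fetal kidney pools was hybridized to 12 Affymetrix Rat Gene 2.1 ST arrays. The authors deposited log2 values made by RMA, per the labels with the Affymetrix Expression Console (version not given in the sources). Scans, detection calls and the other experiments were not analysed here, and 0 value columns were left unmapped. Clusters were named from the platform annotation (14824 with 1 symbol, 829 with several, 21032 with none). Of several clusters of a gene the one with the highest mean was kept. CPS and LD were compared over all clusters with limma 3.58.1 (R 4.3.3), two-sided, and p-values measure the spread between pools. Correlations used exact permutation within a group and 100000 draws within groups over 12 arrays (Python 3.11.15, scipy 1.17.1). The steps were tested on simulated data. The gene, the lists and the tests were chosen with earlier results of these data known. Named genes were Dlk1, the measured genes of its domain, the 7 correlation genes, up to 4 genes per list by limma p, and the 10 highest and 5 lowest in r to Dlk1. Zfp423 and the genes past the threshold beyond 4 per list were added after their values were seen. Alternatives were other normalizations, the methods' unpaired one-way test, an intensity trend, array weights, a replicate block, marker means as covariates and each array left out. The number of arrays limits the precision.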

Additional observations from a re-analysis of the deposited data

Results flagged for a closer look

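In groups of 6 arrays, 8 of 190 groups checked had an array far from the others by Dixon's criterion at 95%, which chance alone gives in about 1 of 20. In CPS replicate 1, the array richest in Dlk1 and in muscle genes, Gnas at 6.22 and Fitm1 at 5.49 stood apart from the other CPS arrays. Cyp21a1 stood apart in LD replicate 2, at 2.82, which raised the LD mean. Ascl2 stood apart in CPS replicate 4 at 2.49, Notch1 in CPS replicate 6 at 6.12 and Dll1 in LD replicate 6 at 4.61. Hes1 stood apart in CPS replicate 3 at 7.60 and in LD replicate 1 at 8.14. Dlk1 itself had no such array in either group.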

How the results depend on the processing

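The Dlk1 difference of 0.73 stayed positive in every setting run, between 0.58 and 0.81 when each array was left out and 0.71 with array weights, 0.77 with arrays centred and 0.73 after quantile normalization again. It moved to 0.29 with the stroma mean as a covariate. Clusters lower in CPS numbered 1074, against 618 when only those at or above the median level were tested, which leaves fewer clusters, and 672 with arrays centred, and named genes lower in CPS 259, against 96 with arrays centred. The cause of the shift with centring was not tested. Genes of the Notch pathway past the threshold numbered 1, against 3 with arrays centred, 2 with the intensity trend and 2 by the methods' unpaired one-way test. Those of fat cell formation numbered 2, against 1 with the trend and 3 after quantile normalization again. Over the 12 fits that left out 1 array, counts were 747 to 1164 clusters higher and 849 to 1391 lower, 331 to 630 named genes higher and 195 to 330 lower, 1 to 4 imprinted genes, 1 to 3 Notch genes, 1 to 3 genes of fat cell formation, 4 to 9 stroma genes, 5 to 16 genes of adrenal, liver, muscle and gonad and 0 to 7 genes of kidney epithelium, endothelium, blood and division. The correlation with Cyp11a1 turned to 0.29 as rho and to 0.21 without the 2 farthest arrays, that with Cyp21a1 to 0.41 and that with Lum to -0.31 without them. That with Tnnc2 did not pass with arrays centred (0.66), as rho (0.60) or without the 2 farthest arrays (0.16). With each array left out, r was -0.56 to -0.004 for Cyp11a1, -0.59 to 0.25 for Cyp21a1, 0.29 to 0.81 for Tnnc2, -0.13 to 0.34 for Lum, 0.24 to 0.54 for Col1a1, 0.09 to 0.32 for Alb and 0.17 to 0.41 for Afp. Replicate numbers did not pair the pools, since same-numbered deviations correlated at -0.064 to 0.046 and 1 of 6 matched best with its own number. With the replicate block Dlk1 differed by 0.73 (standard error 0.16), and 3 Notch genes passed. The block also ended the calls of Usp29 (-0.26) and Cps1 (0.86), whose differences it left as they were.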
